A study of Homo sapiens with 4 samples.

Results

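The miR-181 family is described here by its 4 mature 5p miRNAs, hsa-miR-181a-5p, hsa-miR-181b-5p, hsa-miR-181c-5p and hsa-miR-181d-5p. They were chosen by name and make up 4 of the 843 distinct mature names in the miRNA table. The libraries came from HGC27 and AGS, 2 established human gastric cancer cell lines. In both lines the FN1 3′-UTR, the untranslated end of the fibronectin mRNA, was stably overexpressed from a lentivirus under puromycin selection, so the negative probe libraries carry it as well. Lysates were incubated with a biotinylated RNA probe on streptavidin beads, and the RNA that stayed on the beads was sequenced. HGC27 and AGS lysates were each taken through the assay with a probe named positive and a probe named negative, both made to the FN1 3′-UTR, and this gave 4 groups of 1 library each. The methods place an antisense RNA on the beads, whereas the labels allow either the RNA itself or an antisense copy, and neither source assigns a strand to the names positive and negative. The ratios are not interpreted as capture by one strand or the other. No group had a replicate, and intervals below cover counting error only.

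A mature miRNA guides the Argonaute protein to mRNAs that pair with its seed, the bases near its 5′ end, and lowers their translation or stability. Members of a family share the seed and can pair with the same seed sites. The miR-181 family is known for setting the sensitivity of T cell receptor signalling and for roles in blood cell differentiation. In tumours, miR-181a and miR-181b have been linked to TGFβ signalling and cell migration.

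The 4 mature sequences are shown because the whole comparison rests on telling them apart. They are given 5′ to 3′ as in the deposited table and were identical to RefSeq, with bases 2 to 8, the seed, in capitals.

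hsa-miR-181a-5p: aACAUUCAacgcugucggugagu

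hsa-miR-181b-5p: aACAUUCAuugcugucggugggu

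hsa-miR-181c-5p: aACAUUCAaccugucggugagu

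hsa-miR-181d-5p: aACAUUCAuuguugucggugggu

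All 4 members had 1 seed, and no other entry of the table carried it. Counted from 1 at the 5′ end, miR-181b-5p differed from miR-181a-5p by A9U, C10U and A21G. miR-181d-5p differed from miR-181b-5p by C12U alone. miR-181c-5p was the miR-181a-5p sequence without base 11, which made it 22 bases long against 23 for the others. How tags that match more than 1 member were assigned is not given in the sources used here. No predicted entry contained a member's sequence or was contained in one.

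The hairpins lie in 3 pairs in GRCh38. On chromosome 1, minus strand, MIR181B1 (chr1:198858873-198858982) and MIR181A1 (chr1:198859044-198859153) were 61 bases apart in an intron of the noncoding gene MIR181A1HG. On chromosome 9, plus strand, MIR181A2 (chr9:124692442-124692551) and MIR181B2 (chr9:124693710-124693798) were 1158 bases apart in an intron of MIR181A2HG, opposite to an intron of NR6A1. On chromosome 19, plus strand, MIR181C (chr19:13874699-13874808) and MIR181D (chr19:13874875-13875011) were 66 bases apart in an intron of NANOS3. Mature miR-181a-5p and miR-181b-5p are each encoded on chromosomes 1 and 9, and their counts cannot be divided between these loci. miR-181c-5p and miR-181d-5p have chromosome 19 as their only source, and the 3p arms of miR-181a differ between its loci.

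The table held 1452832 and 1296853 counts for the negative and positive probe in HGC27, and 2955078 and 1527390 in AGS. A single miRNA, miR-372-3p, took 80.8% and 37.5% of the AGS counts in that order and at most 0.300% of those of HGC27. HGC27 had a dominant miRNA of its own. miR-148a-3p took 50.6% and 35.0% of its counts, against 4.87% and 1.61% in AGS. Totals that exclude miR-148a-3p were not computed. Because a value per 1000000 tags falls when 1 miRNA fills a library, each comparison of the lines is followed by the scalings that it depends on. Of 8 miRNAs listed as markers of epithelial cells, 7 to 8 were listed in each library, with a summed score of 922 and 495 in HGC27 and 10445 and 1047 in AGS. Of 6 blood cell miRNAs at most 1 was listed in a library, at a score of 1, and miR-142-3p and miR-223-3p were not in the table. Of 3 muscle miRNAs, miR-1-3p scored 8 to 117, miR-206 scored at most 2, and miR-133a-3p was not in the table. The liver miRNA miR-122-5p scored 1 to 13. Of 2 neural miRNAs, miR-9-5p scored 726 and 1690 in HGC27 but 1 and 4 in AGS, and miR-124-3p was not in the table. The part of these miRNAs in the differences below was not tested.

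With the negative probe, miR-181d-5p and miR-181b-5p had the most counts of the family in HGC27, and miR-181b-5p and miR-181a-5p in AGS. miR-181d-5p had 436 counts with the negative and 166 with the positive probe in HGC27, 10 with the negative probe in AGS and a blank with the positive probe in AGS. Its score, the deposited tags per 1000000 rounded to whole numbers, was 150, 60, 1 and 0 in that order. It ranked 80 of 442 known miRNAs listed in the HGC27 negative probe library and 165 of 289 in that of AGS. miR-181d-5p was thus well detected in HGC27, had few counts in AGS negative and was a blank in AGS positive.

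miR-181b-5p had 343, 186, 137 and 22 counts in the same library order, with scores of 118, 67, 19 and 5. miR-181a-5p had 130, 152, 75 and 31 counts, with scores of 45, 55, 10 and 7. Both were listed in all libraries, and in AGS negative they ranked 72 and 86 of 289. miR-181c-5p had 3 and 2 counts in HGC27 and blanks in AGS, a level from which no difference can be read. The lowest count listed in the table was 2, so a blank can hold a count of 1.

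**Figure D1:**
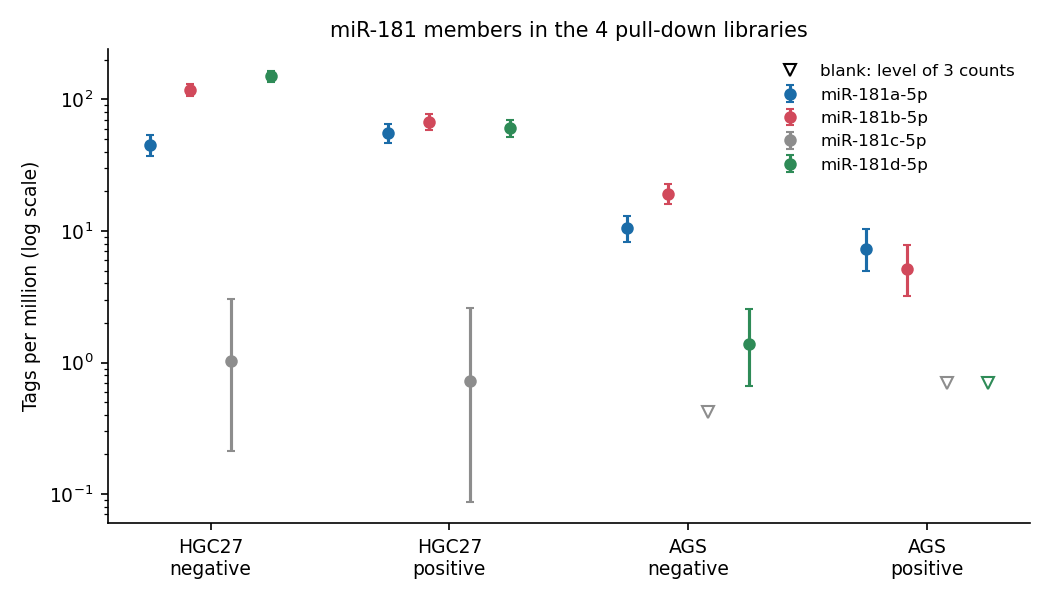
Level of each miR-181 member, in tags per 1000000 on a log axis, in the 4 libraries. Points are the count over the library's divisor with exact Poisson 95% intervals (counting error only), and open triangles mark blanks at the level of 3 counts. miR-181d-5p falls from 436 counts in HGC27 negative to 10 in AGS negative and a blank in AGS positive.

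The members summed to 912 counts in HGC27 negative, 506 in HGC27 positive, 222 in AGS negative and 53 in AGS positive. This was 0.0628% of the table counts (Wilson 95% CI 0.0588 to 0.0670), 0.0390% (0.0358 to 0.0426), 0.00751% (0.00659 to 0.00857) and 0.00347% (0.00265 to 0.00454). The family was therefore a small part of every library, and precision in AGS positive was limited by its 53 counts.

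The makeup of the family does not depend on how libraries are scaled to each other, and it differed between the lines. miR-181d-5p held 47.8% of the family counts in HGC27 negative (Wilson 95% CI 44.6 to 51.1) and 32.8% in HGC27 positive (28.9 to 37.0). It held 4.50% in AGS negative (2.46 to 8.09) and 0 of 53 counts in AGS positive, with an upper limit of 6.76%. The HGC27 and AGS intervals did not overlap under either probe. With the blank taken as 1 count, a choice made after the data were seen, the AGS positive share was 1.82%. Such a value had to lie within that limit, so this is not a check on it.

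miR-181b-5p held 37.6% (34.5 to 40.8) and 36.8% (32.7 to 41.0) in HGC27 negative and positive, with intervals that overlapped almost fully. In AGS it held 61.7% (55.2 to 67.9) and 41.5% (29.3 to 54.9). The share of miR-181a-5p was higher with the positive probe in both lines. It was 14.3% (12.1 to 16.7) against 30.0% (26.2 to 34.2) in HGC27, and 33.8% (27.9 to 40.2) against 58.5% (45.1 to 70.7) in AGS. miR-181c-5p held 0.329% and 0.395% in HGC27.

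**Figure D2:**
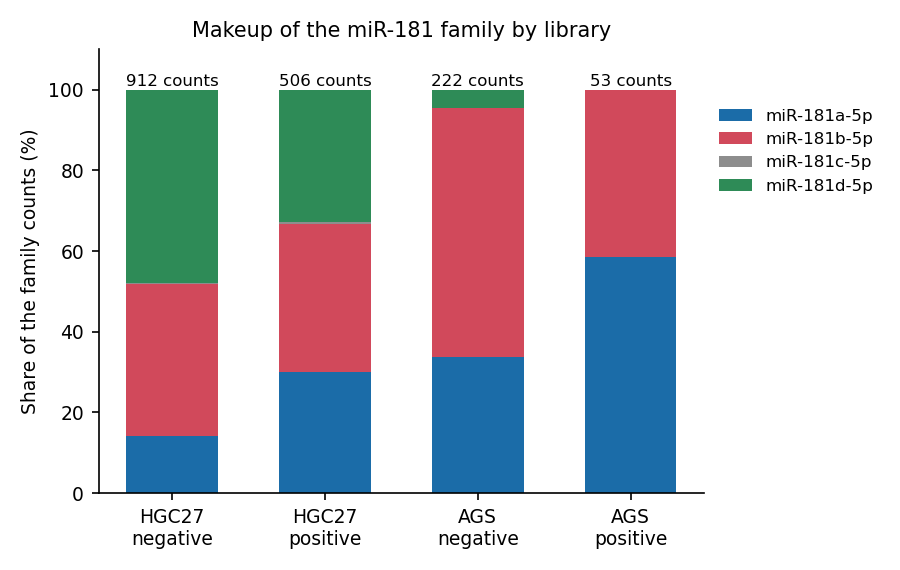
Share of the family counts, in percent, held by each member in the 4 libraries, with the family's total counts above each bar. miR-181d-5p makes up 47.8% and 32.8% in HGC27 and 4.50% and 0% in AGS.

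The 2 members of the chromosome 19 pair, whose hairpins lie 66 bases apart, were recovered at very different levels. In HGC27 negative, miR-181d-5p had 145 times the counts of miR-181c-5p (exact 95% interval 49.4 to 707), and in HGC27 positive 83.0 times (22.6 to 691). Tag counts of different miRNAs compare tags and not molecules.

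The comparison of the probes asks whether any member gained with the positive probe over the negative one, line by line. It is given as the ratio of the scores, each with 1 added, and a ratio of at least 2 or at most 0.5 is called. The family ratio of HGC27 was 0.584 (exact 95% interval of the fold 0.523 to 0.651). That of AGS was 0.419 (0.291 to 0.543). The median log2 ratio over entries with at least 10 counts was 0 in both lines, over 434 entries in HGC27 and 345 in AGS. The median of the 3 members with at least 10 counts was -0.81 and -1. The AGS value is that of miR-181d-5p, from rounded scores of 1 and 0. The AGS median over all entries was 0.26 on the unrounded score and -0.44 under TMM. Both probes were used on the same overexpressing cells of a line, so this ratio compares what was recovered with each probe. The sources do not say whether both probes met the same lysate.

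In HGC27, miR-181d-5p had a ratio of 0.404 (0.333 to 0.480), from 436 to 166 counts. It was the 1 member called lower, where 34% of the 755 entries listed in either library were. miR-181b-5p had a ratio of 0.571 (0.475 to 0.684) and miR-181a-5p 1.22 (0.967 to 1.57). The interval of miR-181a-5p included 1, and those of the other 2 lay below it. Under DESeq2 size factors the ratio of miR-181d-5p was 0.503 and no longer called.

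In AGS, miR-181b-5p had a ratio of 0.300 (0.164 to 0.425), from 137 to 22 counts. miR-181d-5p, with 10 counts against a blank, had a ratio of 0.5, which comes from rounded scores of 1 and 0. With the blank set at a floor of 3 counts it was 1.98-fold lower. Counting error allows less, with an exact upper 95% limit of 0.750 for the fold. These 2 members were called lower, where 22.7% of 459 entries were. miR-181a-5p had a ratio of 0.727 (0.442 to 1.07). Under a pseudocount of 10, the ratio of miR-181b-5p was 0.517 and that of miR-181d-5p 0.909, and neither was called. Some scalings gave lower AGS ratios. miR-181a-5p was past 0.5 in 3 of 8 alternatives, at 0.267 with totals that exclude miR-372-3p, 0.364 under TMM and 0.443 on raw counts. miR-181b-5p was at 0.110 with totals that exclude miR-372-3p.

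Within a library the members can be set against each other without any scaling. In HGC27 there were 2.64 miR-181b-5p counts per miR-181a-5p count with the negative probe (exact 95% interval 2.15 to 3.25) and 1.22 with the positive probe (0.982 to 1.53). In AGS these ratios were 1.83 (1.37 to 2.45) and 0.710 (0.392 to 1.27). The odds ratio of positive over negative probe was 0.464 in HGC27 (exact conditional 95% interval 0.342 to 0.629) and 0.389 in AGS (0.200 to 0.751). Relative to miR-181a-5p, miR-181b-5p was thus lower with the positive probe in both lines by more than counting error. How often other pairs of miRNAs in the table shift as much was not computed, here or for the pairs below.

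For miR-181d-5p over miR-181a-5p the ratio was 3.35 with the negative probe (2.75 to 4.11) and 1.09 with the positive probe (0.871 to 1.37) in HGC27, an odds ratio of 0.326 (0.240 to 0.442). In AGS the same ratio was 0.133 (0.0614 to 0.259) and 0 (up to 0.126), and the interval of the odds ratio, 0 to 1.16, included 1. miR-181d-5p was lower also relative to miR-181b-5p in HGC27, with an odds ratio of 0.702 (0.541 to 0.911). The order of the 3 members in HGC27 was thus d over b over a with the negative probe, with miR-181d-5p at 1.27 times miR-181b-5p (1.10 to 1.47). With the positive probe the intervals of all 3 pairwise ratios included 1.

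**Figure D3:**
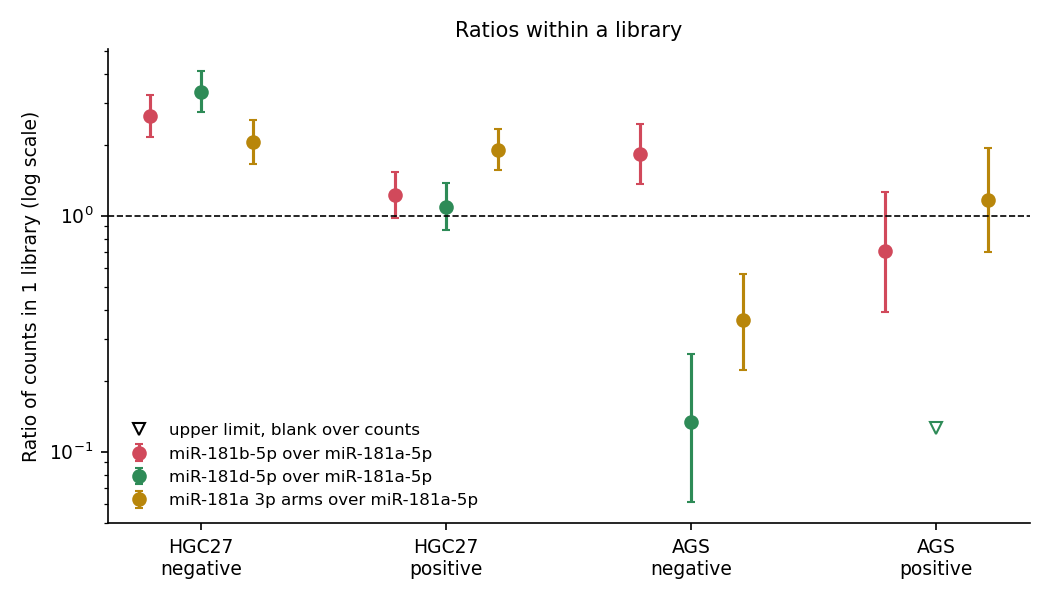
Ratio of counts within 1 library on a log axis, for miR-181b-5p, miR-181d-5p and the summed 3p arms of miR-181a, each over miR-181a-5p. Bars are exact 95% intervals (counting error only), the dashed line is a ratio of 1, and the open triangle is the upper limit for a blank. The ratio of miR-181b-5p over miR-181a-5p lies lower with the positive probe in both lines, at 1.22 against 2.64 and 0.710 against 1.83.

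Across lines, the probe effect was fitted on all 4 libraries in edgeR with the line as covariate, so that the lines stand in for replicates with 1 residual degree of freedom. The mean prior degrees of freedom were infinite. Each test therefore rests on a spread pooled over the entries tested and not on that of its own miRNA. Of 271 entries tested, 7.01% were called at an adjusted p under 0.05. Of the 4 members, 3 passed the filter on low counts and none was called. None was called either with DESeq2 size factors in edgeR, in the DESeq2 Wald test or with known miRNAs only. These fits called 32 of 271, 49 of 271 and 25 of 237 entries. Library totals, limma-voom, no filter and at least 10 counts in every library called 0 entries of any kind, so these fits could call no member. The lowest unadjusted p was 0.0827 in edgeR and 0.0167 in limma-voom, both for miR-181d-5p. The log2 fold change was -2.18 ± 1.25 (SE) for miR-181d-5p (edgeR quasi-likelihood test, Benjamini-Hochberg adjusted p = 0.303), -1.72 ± 1.15 for miR-181b-5p (edgeR adjusted p = 0.383) and -0.50 ± 1.11 for miR-181a-5p (edgeR adjusted p = 0.860). The log2 fold change of miR-181a-5p was 0.47 with the AGS libraries left out and -1.50 with the HGC27 libraries left out, so its sign differed between the lines.

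The comparison of the lines gives the largest difference in miR-181d-5p. Its scores of 150 and 1 with the negative probe gave a ratio of 75.5 with 1 added to each. The fold from counts and divisors was 108 (exact 95% interval 58.0 to 226), and with a pseudocount of 10 the ratio was 14.5. With the positive probe, 166 counts stood against a blank. The fold was 85.6 with the blank set at a floor of 3 counts, and counting error allows less, with an exact lower 95% limit of 68.8. The family ratio was 10.2 with the negative probe (8.75 to 11.8) and 14.2 with the positive probe (11.1 to 20.0). miR-181a-5p had ratios of 4.18 (3.20 to 5.77) and 7.00 (5.13 to 11.5), and miR-181b-5p 5.95 (5.06 to 7.59) and 11.3 (8.38 to 21.4). These comparisons use the same 4 libraries as those of the probes. Whether a ratio between the lines stems from the amount in the cells or from the amount captured cannot be told apart in pull-down libraries alone. Neither can fewer cells with a miRNA and less of it per cell.

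On this scale most of the table was higher in HGC27. With the negative probe 86% of 615 entries were called higher and with the positive probe 75.3% of 684, against all 4 members under each probe. The calls of miR-181c-5p rest on 3 and 2 counts against blanks. The median log2 ratio of all entries with at least 10 counts was 2.32 and 2.00, so a log2 ratio of 2.06 for miR-181a-5p with the negative probe was below that of the typical entry.

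For miR-181a-5p and miR-181b-5p the direction with the negative probe turned with the scaling. With totals that exclude miR-372-3p, the negative probe ratio was 0.687 for miR-181a-5p, 0.979 for miR-181b-5p and 14.1 for miR-181d-5p. Under TMM these were 0.402, 0.565 and 8.36, and under DESeq2 size factors 0.448, 0.628 and 9.01. The family ratio came to 0.918 under TMM, where the median log2 ratio of all entries was 0.31. With the positive probe, miR-181a-5p ranged from 1.14 to 7.76 and miR-181b-5p from 1.91 to 13.2 over 8 alternatives. miR-181d-5p was at least 8.36 and 7.00 times as high in HGC27 with the negative and positive probe under each of the 8 alternatives.

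**Figure D4:**
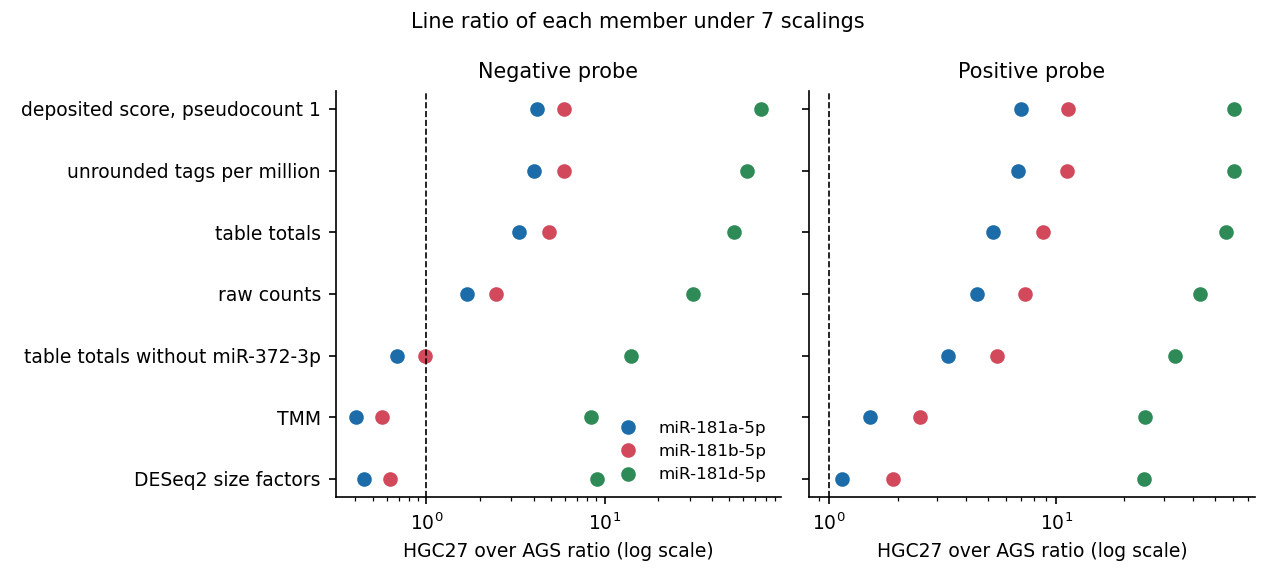
Ratio of HGC27 over AGS on a log axis for 3 members under 7 scalings, with the negative probe at left and the positive probe at right, and a dashed line at a ratio of 1. With the negative probe miR-181a-5p runs from 4.18 under the deposited score to 0.402 under TMM, whereas miR-181d-5p stays at 8.36 or more.

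Relative to miR-181a-5p, a comparison free of scaling, miR-181d-5p was 25.2 times as high in HGC27 as in AGS with the negative probe (exact conditional 95% interval of the odds ratio 12.4 to 55.9). With the positive probe the lower limit was 8.41. Relative to miR-181b-5p, which differs from it by 1 base, the odds ratio was 17.4 with the negative probe (8.98 to 37.6), and the lower limit with the positive probe was 4.77. For miR-181b-5p over miR-181a-5p the odds ratio of HGC27 over AGS was 1.44 with the negative probe (1.004 to 2.07) and 1.72 with the positive probe (0.922 to 3.26).

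In the edgeR fit of the line effect over both probes, 29.9% of 271 entries were called, 60 higher and 21 lower in HGC27. miR-181d-5p was the 1 member called, higher in HGC27 by 4.47 ± 1.33 on the log2 scale (SE, edgeR adjusted p = 0.00470). With 10 counts and a blank in AGS, it passed the filter on low counts only through its 436 and 166 counts in HGC27. The test thus covers a member that entered through the line in which it is high, and its p-value is no independent support. The lines compared are 2 lines, and the probes stand in for replicates. miR-181a-5p was at -0.38 ± 1.11 (edgeR adjusted p = 0.837) and miR-181b-5p at 0.26 ± 1.13 (edgeR adjusted p = 0.871). The call of miR-181d-5p was lost without a filter on low counts (4.78, edgeR adjusted p = 0.181), where 0 of the 843 entries were called and 95 had an unadjusted p under 0.05, and its adjusted p was 0.00376 to 0.0235 in the other 5 fits that tested it. With library totals alone as scaling, miR-181b-5p was called as well (2.82, edgeR adjusted p = 0.0289), where the median of all entries was 3.17. There 170 of 271 entries were called, 155 of them higher in HGC27.

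The other arms of the hairpins, usually the less abundant strand of a hairpin, tell the loci of miR-181a apart. They are shown for that reason, 5′ to 3′, in lower case throughout, and matched RefSeq.

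hsa-miR-181a-3p: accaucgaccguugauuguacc

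hsa-miR-181a-2-3p: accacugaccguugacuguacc

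The first comes from MIR181A1 on chromosome 1 (chr1:198859069-198859090) and the second from MIR181A2 on chromosome 9 (chr9:124692518-124692539). miR-181a-3p had 145, 128, 17 and 17 counts in HGC27 negative, HGC27 positive, AGS negative and AGS positive. miR-181a-2-3p had scores of 42, 58, 1 and 4 in that order, with 161, 10 and 19 counts behind the last 3. Both miR-181a loci thus gave tags in both lines.

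Summed, the 3p arms of miR-181a outnumbered miR-181a-5p in HGC27, by 2.05 with the negative probe (exact 95% interval 1.66 to 2.55) and 1.9 with the positive probe (1.56 to 2.33). In AGS negative the 3p arms were the fewer, at a ratio of 0.360 (0.223 to 0.566). In AGS positive the ratio was 1.16 (0.698 to 1.94), on 36 against 31 counts. The odds ratio of positive over negative probe was 0.926 in HGC27 (0.687 to 1.25) and 3.23 in AGS (1.60 to 6.52). Between the lines it was 5.71 with the negative probe (3.43 to 9.65) and 1.64 with the positive probe (0.938 to 2.84).

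Neither miR-181a arm was called with the probe in HGC27, where miR-181a-3p had a ratio of 0.922 (0.726 to 1.19) and miR-181a-2-3p 1.37 (1.09 to 1.77). In AGS miR-181a-2-3p was called higher at 2.50 (1.41 to 7.69), on 19 against 10 counts, and was 1.10 with totals that exclude miR-372-3p. The share of all entries called higher in AGS was not computed, so this call has no such share to be set against. Over 345 entries the median log2 ratio in AGS was 0 on the score and 0.26 on the unrounded score. It was -0.71 with totals that exclude miR-372-3p. With TMM in edgeR neither arm was called for the probe or the line, with line effects of 1.43 ± 1.08 for miR-181a-2-3p (edgeR adjusted p = 0.363) and 1.09 ± 1.07 for miR-181a-3p (edgeR adjusted p = 0.491). With library totals alone as scaling both were called higher in HGC27, at 3.94 (edgeR adjusted p = 0.0182) and 3.62 (edgeR adjusted p = 0.0226), where the median of all entries was 3.17. In that fit 170 of 271 entries were called, 155 of them higher in HGC27.

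The miRNAs whose profile over the 4 libraries was nearest to that of each member were sought among 185 known miRNAs of other families, by the Euclidean distance of centred log2 (score + 1) values. For miR-181b-5p the nearest were let-7d-3p (distance 0.348, scores of 138, 64, 18 and 4), miR-26a-5p (0.478) and miR-26b-5p (0.539). For miR-181a-5p they were miR-197-3p (0.431, scores of 13, 21, 2 and 2), miR-1301-3p (0.489) and miR-1278 (0.540). With 4 points per profile these are descriptions only.

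The probes were made to the FN1 3′-UTR, so the annotated 3′-UTR was searched for the complement of the seed. TGAATGT, the mRNA sequence that pairs with bases 2 to 8 of all 4 members, had 0 matches in the longest FN1 3′-UTR of GENCODE release 29, which is 1115 bases long. ACATTCA, the same letters on the antisense strand, had 0 matches as well. In the first 1115 bases of 9520 other 3′-UTRs of at least this length, 13.8% held the former and 8.77% the latter. No match says only that these letters are not in this sequence. Whether this sequence equals the FN1 3′-UTR that the paper overexpressed was not checked.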

How the data were processed

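Small RNA sequencing of the 4 pull-down libraries was processed by the authors. Per the labels, the submitters' processing notes name cutadapt 1.9.3, Novoalign 3.02.12 and hg38. The authors deposited raw counts of tags per mature miRNA, with 901 rows that were collapsed to 843 names, 570 known and 273 predicted. Blanks were taken as 0. The authors also deposited a normalized score, which is tags per 1000000 rounded to whole numbers. The divisors recovered from both were 2763288 to 7179197, and the table totals were 35.7% to 50.0% of them. The reason is not given in the sources used here.

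Ratios used the score with a pseudocount of 1, with exact 95% intervals from counts and divisors. Counts were fitted in edgeR 4.0.16 (R 4.3.3) with TMM, filterByExpr and the quasi-likelihood test on line and probe (common biological coefficient of variation 0.612). A run of the fit on simulated counts held no difference between the lines, unlike these libraries, and is not used as support. DESeq2 1.42.0 and limma 3.58.1 were alternatives. Adjusted p-values cover all entries tested. The SE of an edgeR value is its absolute log2 fold change divided by the square root of the F value of its test. The text names the members, their other arms, entries sharing the seed, miR-372-3p and miR-148a-3p. For each member with at least 10 counts in every library, it also names the 3 nearest profiles among known miRNAs with at least 100 counts. Epithelial, blood cell, muscle, liver and neural miRNAs were the marker lists. The members and lists were chosen with earlier results of these data known. Sequences and loci are from RefSeq (GRCh38.p14), and overlapping genes are from GENCODE. Where nothing says that libraries came from separate cultures, p-values measure only the spread between these libraries.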

Additional observations from a re-analysis of the deposited data

Results flagged for a closer look

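miR-181a-5p moved with the probe in opposite directions in the lines, with a positive over negative ratio of 1.22 in HGC27 and 0.727 in AGS. Under 8 other scalings and pseudocounts the ratio was 1.16 to 1.48 in HGC27 and 0.267 to 0.850 in AGS. miR-181a-3p did so the other way round, at 0.922 in HGC27 and 1.67 in AGS, but its directions turned with the scaling in both lines. Its ratio ran from 0.886 to 1.13 in HGC27 and from 0.641 to 1.95 in AGS, was above 1 in both lines under DESeq2 size factors (1.13 and 1.33), and was 1.05 in HGC27 and 0.858 in AGS under TMM. Each direction rests on 1 library per group, the exact 95% intervals of all 4 ratios include 1, and the difference between the lines was not tested.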

How the results depend on the processing

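The family ratio of positive over negative probe in HGC27 was 0.665 under TMM and 0.720 under DESeq2 size factors. In AGS it was 0.150 with totals that exclude miR-372-3p, 0.208 under TMM, 0.252 on raw counts and 0.55 with a pseudocount of 10. The family ratio of HGC27 over AGS was, with the negative and positive probe, 8.14 and 10.6 under table totals, 1.60 and 6.65 with totals that exclude miR-372-3p, 0.918 and 2.94 under TMM, 1.02 and 2.19 under DESeq2 size factors, 4.05 and 8.95 on raw counts, and 8.10 and 8.77 with a pseudocount of 10. The negative probe ratios of miR-181a-5p and miR-181b-5p turned to 0.687 and 0.979 with totals that exclude miR-372-3p, 0.402 and 0.565 under TMM, and 0.448 and 0.628 under DESeq2 size factors. The cause was not tested beyond these scalings. Taking a blank as 1 count, an alternative added after the data were seen, leaves shares and ratios of libraries without a blank unchanged by construction. The miR-181d-5p share became 4.48% in AGS negative and 1.82% in AGS positive. Its odds ratio over miR-181a-5p between the probes in AGS went from 0 to 0.242. A single count can hardly leave intervals this wide, so no conclusion is drawn from this alternative.

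Entries called for the probe were 19 in edgeR with TMM, 32 once TMM was replaced by DESeq2 size factors, and 49 in the DESeq2 Wald test. They were 0 under library totals, in limma-voom, without a filter and with at least 10 counts in every library, where 54, 72, 66 and 16 entries had an unadjusted p under 0.05. Entries called for the line were 81 of 271 in edgeR, 170 of 271 under library totals and 15 of 123 with at least 10 counts in every library. They were 0 of 843 without a filter, where 95 had an unadjusted p under 0.05. The filter of 10 counts drops miR-181d-5p. None of the tested values that changed sign had passed the threshold. These were the probe effect of miR-181a-3p (0.44 under library totals, 0.31 with DESeq2 size factors, 0.32 in the Wald test), that of miR-181a-5p (0.040 under library totals) and the line effect of miR-181a-5p (2.17 under library totals, 0.0041 with at least 10 counts).

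With the positive and then the negative probe libraries left out, the line effect was 3.19 and 5.87 for miR-181d-5p, -0.83 and 1.38 for miR-181b-5p, and -1.35 and 0.62 for miR-181a-5p, values with no test. With the AGS and then the HGC27 libraries left out, the probe effect of miR-181a-3p was 0.072 and -0.24. Adding end variants gave no value, since none were listed. The fit of the probe holds the line as a term and so compares the probes within lines. The labels give no replicate numbers for a further block. In AGS, 222 and 53 family counts limit what can be seen of miR-181c-5p and miR-181d-5p.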

Other observations

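Other arms of the family were near the limit of the table. miR-181b-3p, from MIR181B1 on chromosome 1, had 21 counts in HGC27 negative and a blank in HGC27 positive. With the blank set at a floor of 3 counts it was 6.65-fold lower. Counting error allows less, with an exact upper 95% limit of 0.202 for the fold. Its ratio with 1 added to each score was 0.125, against 0.286 under TMM, 0.304 under DESeq2 size factors and 0.588 with a pseudocount of 10. At 0.125 miR-181b-3p was called lower, where 34% of the 755 entries listed in either HGC27 library were. Over the same libraries miR-181b-5p went from 343 to 186 counts, and the upper limit of the odds ratio of the arms was 0.360. In AGS it had 4 counts with the negative probe and a blank with the positive probe. miR-181b-2-3p was listed in HGC27 negative alone, at 3 counts, and miR-181c-3p in HGC27 positive alone, at 3 counts. miR-181d-3p was not in the table.

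The chromosome 1 arm of miR-181a was lower relative to the chromosome 9 arm with the positive probe in HGC27. miR-181a-3p over miR-181a-2-3p was 1.19 with the negative probe (exact 95% interval 0.928 to 1.52) and 0.795 with the positive probe (0.625 to 1.01), an odds ratio of 0.669 (0.472 to 0.948). In AGS the odds ratio was 0.526 (0.167 to 1.63), on 17 counts of miR-181a-3p with each probe and 10 and 19 of miR-181a-2-3p.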
